A study of Sus scrofa with 6 samples.

Results

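Late radial glia-like progenitors were studied here in porcine midbrain-like organoids (pMLOs), as the cells of the D28 and D45 libraries that carried at least 1 UMI of HES5 and at least 1 UMI of SOX9 and passed the exclusions given below. These cells were chosen by measured values, the UMI counts of the 15 genes of the gate, so those genes are described and not tested. They numbered 376 cells, of 41956 cells within the limits of 2000 or more UMIs and at most 7000 detected genes, 68121 cell barcodes of the same 4 libraries and 104820 barcodes of the whole series. A UMI (unique molecular identifier) stands for 1 captured mRNA molecule. The organoids came from the line IVF_1_pESC_FIW, a single porcine embryonic stem cell line made by in vitro fertilization, so every library shares 1 genetic background. No group carried a transgene or a further treatment, and the groups differed in age and in medium, with day 11, day 28 and day 45 (D11, D28 and D45) sampled as replicates A and B and each sample made of dissociated organoids. All groups had been patterned with SB431542, Noggin, SHH-C24II, CHIR99021 and FGF8. BDNF and ascorbic acid were added before D11, so all groups had received them too. D28 and D45 organoids had in addition been embedded in Matrigel and moved to a terminal medium that held these agents, left out FGF8 and added GDNF, db-cAMP and DAPT, which blocks the protease that releases active Notch, so between D11 and the later days age and medium cannot be told apart. Replicates A and B are described as biological duplicates in the study, while neither it nor the labels say whether they were separate differentiations, and p-values measure the spread between these libraries.

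Radial glia are the progenitors of the developing brain. They line the ventricle, send a long process to the outer surface, divide to give neurons first, and later give astrocytes and oligodendrocyte precursors. Notch signalling holds them in the progenitor state: a ligand such as DLL1 or JAG1 on one cell binds the NOTCH receptor of its neighbour, proteases then cut the receptor, the released fragment binds the DNA-bound protein RBPJ, and the HES and HEY repressors are switched on and keep proneural genes silent. HES5, the gene that opens the gate used here, is such a target. SOX9 is a transcription factor of radial glia that stays on in astrocytes, where the water channel AQP4 and the filament protein GFAP appear.

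The HES5 sequence upstream of its start is shown because the gate reads this Notch target. HES5 lies on chromosome 6 at 64409110 to 64410541 on the minus strand of Sscrofa11.1, by RefSeq. The 250 bases before its start, chr6:64410542-64410791, are printed 5′ to 3′ on the gene's strand, and the capitals mark each GTGGGAA, the letters that RBPJ is known to recognise, or its reverse complement.
HES5: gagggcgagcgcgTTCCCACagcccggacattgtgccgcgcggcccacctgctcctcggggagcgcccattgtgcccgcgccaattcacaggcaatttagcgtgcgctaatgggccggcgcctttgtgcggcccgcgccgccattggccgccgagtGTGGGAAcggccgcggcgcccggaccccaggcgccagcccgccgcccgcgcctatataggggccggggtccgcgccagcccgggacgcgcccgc
The word occurs 2 times, 88 and 231 bases before the start. On both strands it was present in 1033 of 19556 windows of the same length before protein-coding genes, or 5.28%. A match in letters is not a binding site, and no binding was measured. SOX9, the other gene of the gate, lies on chromosome 12 at 8642154 to 8647315. AQP4 lies on chromosome 6 at 111407632 to 111422169, and GFAP on chromosome 12 at 18456268 to 18466594.

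The gate removed most cells that held both transcripts. Of 1236 D28 and D45 cells with HES5 and SOX9, 494 had a UMI of AQP4 or GFAP, 300 had at least 3 UMIs of the neuronal gene STMN2, 221 had at least 3 of the mitotic genes TOP2A, CENPF, NUSAP1, UBE2C and BIRC5, 146 had a UMI of the floor plate gene CORIN, and 31 had at least 3 of the fibroblast genes COL1A1, COL3A1, LUM and DCN. A cell could fail several of these. The 376 that were left comprised 17 cells in D28 replicate A, 153 in D28 replicate B, 111 in D45 replicate A and 95 in D45 replicate B. Values below follow that order unless stated. Their shares of the cells within the limits were 0.184% (95% exact Clopper-Pearson interval 0.107 to 0.294), 1.38% (1.17 to 1.62), 1.06% (0.870 to 1.27) and 0.853% (0.690 to 1.04). The D28 replicates therefore lay on both sides of the D45 replicates, and no difference in abundance between the days exceeded the spread within D28. At 2 libraries per day the smallest two-sided p of an exact permutation test is 0.3333. The intervals cover counting error only. On D11 the same gate passed 288 cells (2.21%, 1.96 to 2.47) in replicate A and 154 cells (1.05%, 0.891 to 1.23) in replicate B.

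**Figure D1:**
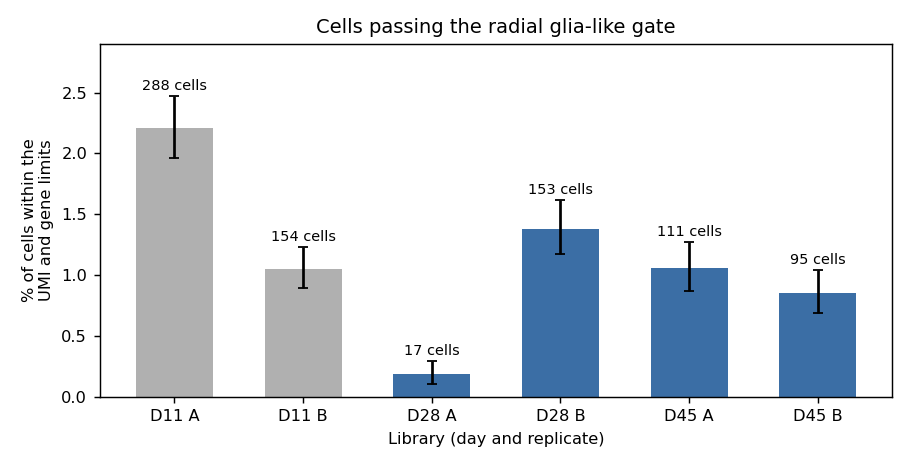
Cells passing the radial glia-like gate, as a percentage of cells within the UMI and gene limits, in each of the 6 libraries, with 95% exact binomial intervals as error bars and the number of cells above each bar. Grey bars are D11 and blue bars are D28 and D45. D28 replicate A is the lowest bar at 0.184%, and D28 replicate B, at 1.38%, stands above both D45 replicates.

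The thresholds of the gate are low, and many cells sat on them. Of the 376 cells, 153 had exactly 1 UMI of HES5, 168 exactly 1 of SOX9, and 70 exactly 1 of each. Just outside the gate, 184 cells met every other condition and carried 1 of the transcripts AQP4 and GFAP without the other, and 83 and 87 of these came from the D45 replicates. With 2 or more UMIs of both genes asked for, the shares came to 0.0649%, 0.479%, 0.390% and 0.224%. When each cell was first thinned to 2000 UMIs, they came to 0.0325%, 0.316%, 0.286% and 0.296%, from 3, 35, 30 and 33 cells. D28 replicate A kept the lowest share under both.

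Depth within the class was even. The median radial glia-like cell had 12555, 9605, 11337 and 11202 UMIs, against 17111, 18673, 17605 and 16333 in astrocyte-like cells, taken as cells with at least 1 UMI of AQP4 and of GFAP. The latter numbered 23, 7, 688 and 1000, and none was found on D11 in 13048 and 14675 cells within the limits. Neuron-gate cells, with at least 3 UMIs of STMN2 and no UMI of HES5, SOX9, AQP4 or GFAP, served as a comparison class. They numbered 4593, 4805, 3752 and 3206 and had a median of 6893, 8100, 8460 and 7690 UMIs. Their values hold transcripts of their own as well as free RNA, which were not told apart, so they are not a measure of free RNA alone. Counts were summed per library and class and are given as CPM, a gene's counts scaled to a fixed total of UMIs per sum. The radial glia-like sums held 218233, 1674728, 1369576 and 1110673 UMIs, so 1 UMI in D28 replicate A is worth more than 4 CPM and every D28 value below leans on 17 cells in 1 of its 2 libraries. Libraries shared 55 to 119 barcodes pairwise, and no cell of the gate carried a shared barcode.

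The name was checked against radial glia genes outside the gate. Of 16 such genes 14 had a row, since SOX2 and RFX4 were not analysed here. Their summed level was 13591, 16781, 18008 and 16198 CPM in the radial glia-like cells against 2709, 2611, 1985 and 2683 CPM in neuron-gate cells. FABP7, the brain fatty acid-binding protein of radial glia, stood at 861, 930.3, 1156 and 788 CPM against 199.96, 144, 110.2 and 142 CPM in neuron-gate cells. It was detected in 82.4%, 90.8%, 85.6% and 82.1% of the radial glia-like cells and in 49.5%, 48.4%, 43.8% and 53.2% of neuron-gate cells, and in 41.2%, 63.4%, 61.3% and 58.9% against 23.3%, 19.1%, 16.2% and 22.8% with all cells thinned to 2000 UMIs. SLC1A3, the glial glutamate transporter GLAST, stood at 472, 401, 373 and 427 CPM against 17.3, 13.5, 35.0 and 32.9 CPM. The receptor phosphatase PTPRZ1 stood at 339, 611, 1264 and 1281 CPM against 34.6, 110.4, 174 and 181 CPM. Its ligand PTN stood at 3707, 4185, 2984 and 3415 CPM against 409.9, 243, 219 and 388 CPM. For all 4 genes every library of the class lay above every neuron-gate library. Neuron-gate cells were chosen to lack HES5 and SOX9, so this sets the class apart from neurons only. In astrocyte-like cells the 14 genes summed to 15457, 27134, 24998 and 24518 CPM, above the class in every library. The check therefore cannot tell radial glia from astrocytes. PAX6, a factor of cortical and dorsal radial glia, was at 0, 7.76, 58.4 and 46.8 CPM, and was higher in neuron-gate cells than in the class in D45 replicate B (63.9 CPM).

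**Figure D2:**
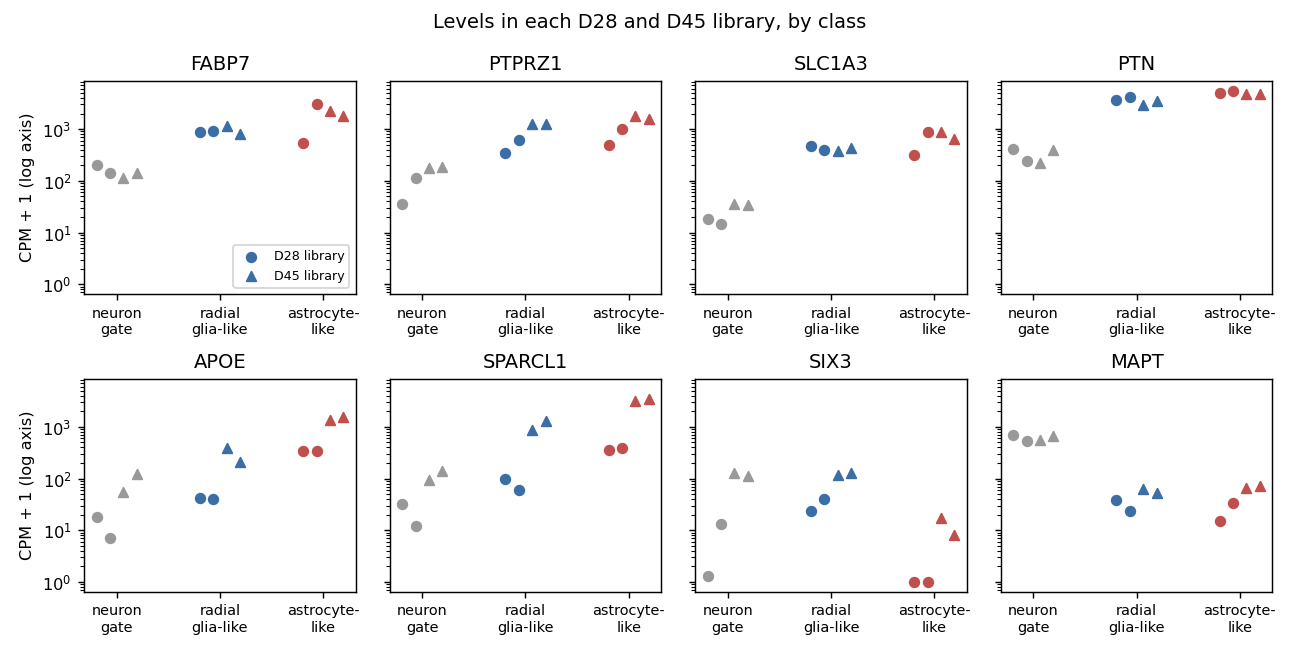
Level of 8 genes (CPM plus 1, log axis) in neuron-gate, radial glia-like and astrocyte-like cells, with 1 point for each D28 library (circles) and each D45 library (triangles). FABP7, PTPRZ1, SLC1A3 and PTN are higher in both glial classes than in neuron-gate cells, SPARCL1 and APOE are highest in astrocyte-like cells, and SIX3 separates the radial glia-like from the astrocyte-like cells but not from D45 neuron-gate cells.

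The submitters' sample label names all cells as midbrain dopaminergic neurons. In the study itself progenitor, neuronal and glial types were annotated, with dopaminergic neurons as a cluster of modest share. Because of the label, 6 genes of dopaminergic neurons were read in the class. TH, the rate-limiting enzyme of dopamine synthesis, was at 0, 5.97, 2.19 and 9.004 CPM in the radial glia-like cells and 55.1, 32.5, 16.3 and 38.8 CPM over all cells within the limits. The dopamine transporter SLC6A3 and the factor PITX3 had no UMI in any of the 4 sums. DDC, which makes dopamine from its precursor, was at 9.16, 5.37, 5.11 and 10.8 CPM against 63.8, 70.8, 15.6 and 45.6 CPM over all cells. NR4A2, a transcription factor of dopaminergic neurons, was nearer to the level of all cells, at 50.4, 34.6, 35.0 and 40.5 CPM against 79.4, 50.5, 43.4 and 56.1 CPM. The vesicular transporter SLC18A2 was at 18.3, 1.19, 1.46 and 2.70 CPM against 4.26, 6.41, 3.75 and 6.26 CPM, so D28 replicate A lay above the level of all cells. Markers of other classes were also read. The neuron list (11 genes) summed to 642, 603, 706 and 661 CPM against 5931, 4471, 3474 and 4321 CPM in neuron-gate cells. The fibroblast list (6 genes outside the gate) summed to 550, 282, 373 and 925 CPM, and the floor plate list (7 genes) to 811, 577, 246 and 413 CPM. In the class 76.5%, 26.8%, 42.3% and 51.6% of cells carried 2 or more of the fibroblast genes, against 10.4%, 7.24%, 7.70% and 17.3% of neuron-gate cells, and 94.1%, 55.6%, 36.9% and 43.2% carried 2 or more of the floor plate genes, against 31.0%, 33.2%, 10.8% and 19.1%. In astrocyte-like cells, which were deeper, the fibroblast shares were 91.3%, 85.7%, 71.8% and 72.2%. Their floor plate shares were 47.8%, 100%, 62.9% and 65.4%. Neuron-gate cells summed to 177, 122, 165 and 543 CPM for the fibroblast list, below the class in every library, and to 419, 606, 135 and 215 CPM for the floor plate list, above the class in D28 replicate B. The microglia and endothelium list (8 genes) summed to 96.2, 115, 56.2 and 72.9 CPM against 58.9, 53.0, 42.8 and 41.03 CPM, and 0%, 17.0%, 5.41% and 9.47% of the cells carried 2 or more of its genes, against 4.01%, 4.00%, 3.01% and 2.87%. The shares in astrocyte-like cells were 8.70%, 14.3%, 11.9% and 12.8%. Among its genes, CDH5 of endothelium was at 0 in all 4 sums and CSF1R of microglia had UMIs in D28 replicate B alone (1.19 CPM). CLDN5 and PTPRC of the same list, by contrast, had UMIs in all 4 sums, at levels given below. CLDN5 stood above neuron-gate cells in every library, and PTPRC in every library but D28 replicate A. The part of free RNA and of droplets with more than 1 cell in these values was not tested beyond the settings given in the closing section.

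Genes of the oligodendrocyte lineage were also present. The 10 of the list summed to 252, 105, 818 and 472 CPM in the radial glia-like cells, and 23.5%, 9.15%, 35.1% and 23.2% of the cells carried 2 or more of them, against 4.46%, 2.93%, 12.8% and 13.5% of neuron-gate cells. Of astrocyte-like cells, which were deeper, 39.1%, 42.9%, 26.9% and 28.4% carried 2 or more. Their sums for the list were 114, 184, 193 and 199 CPM. OLIG1, a transcription factor of oligodendrocyte precursors (chromosome 13, 196644065 to 196646406), and PDGFRA, the growth factor receptor that marks those precursors, were present as either gene in 1, 6, 28 and 18 cells. These are shares of 5.88% (0.149 to 28.7), 3.92% (1.45 to 8.34), 25.2% (17.5 to 34.4) and 18.9% (11.6 to 28.3). Both genes were detected together in 0, 2, 25 and 10 cells, so on D45 they mostly fell in the same cells.

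The D45 cells with either gene were then set beside the D45 cells with neither. This split was chosen after the values were seen and gets no test. In D45 replicates A and B, OPCML, a cell adhesion protein, was at 2064 and 1614 CPM with and 25.9 and 169.7 CPM without. The adhesion molecule DSCAM was at 1466 and 690.2 CPM against 27.7 and 15.3 CPM. SOX10, which drives the oligodendrocyte programme, was at 250.2 and 147 CPM against 10.2 and 7.66 CPM. GPR17, a receptor of committed precursors, was at 542 and 259 CPM against 11.09 and 1.09 CPM, and the Notch ligand DLL1 at 129 and 142 CPM against 8.32 and 13.1 CPM. Other genes were lower in the cells with either gene. VIM, the intermediate filament of radial glia, was at 4044 and 4674 CPM with either gene and 11626 and 8981 CPM with neither. SLC1A3 was at 229 and 157 CPM against 411 and 485 CPM, the matricellular protein SPARCL1 at 122 and 457 CPM against 1083 and 1449 CPM, and the forebrain factor SIX3 at 6.95 and 66.0 CPM against 143 and 139 CPM. PTPRZ1, 1636 and 1857 CPM against 1165 and 1157 CPM, and FABP7, 1668 and 1071 CPM against 1019.6 and 727 CPM, were higher with either gene in both replicates. The median UMIs per cell were 10211.5 and 9336 with and 12313 and 11567 without, so the cells with either gene were not the deeper ones.

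**Figure D3:**
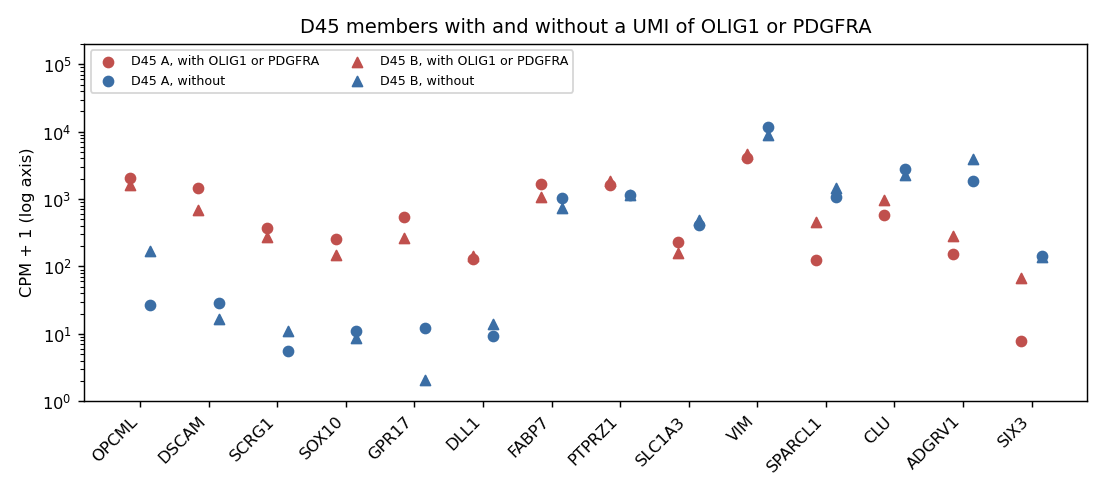
Level of 14 genes (CPM plus 1, log axis) in D45 radial glia-like cells with a UMI of OLIG1 or PDGFRA (red) and with neither (blue), in replicate A (circles) and replicate B (triangles). The first 6 genes are higher in the red cells of both replicates, and SLC1A3, VIM, SPARCL1, CLU, ADGRV1 and SIX3 are higher in the blue cells of both.

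Among the 376 cells, the genes whose counts varied most from cell to cell included several of the glial genes above. The variance-to-mean ratio of counts thinned to 2000 UMIs was ranked in each library over 3369 genes. After 2 genes with an Ensembl number only, PTN led the mean rank with ratios of 7.01, 12.9, 6.92 and 5.67. ADGRV1, a very large adhesion receptor, had ratios of 5.96, 3.87, 8.67 and 8.64. VIM had ratios of 3.39, 7.65, 16.5 and 10.0, and the chaperone CLU 7.20, 3.50, 7.46 and 3.801. FABP7, the metallothionein MT3, the BDNF receptor NTRK2 and the phosphodiesterase PDE3A were also among the first 15.

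The question of how the class changed with age was put by comparing its D45 with its D28 sums, with 15 genes of the gate left out. The gate cut each library by AQP4, GFAP, CORIN and mitotic genes. Genes that go along with these may differ between days through the gate, and this was not tested. By edgeR (quasi-likelihood test, p-values adjusted after Benjamini and Hochberg), 314 of 11424 genes passed (2.75%), 216 higher on D45 (1.89%) and 98 lower (0.858%). Of the lists read, the oligodendrocyte lineage had the largest share of genes past the threshold. Of 8 tested, 4 rose and none fell, and the median log2 fold change of the list was 2.62 beside 0.01 over all genes. OLIG1 was at 4.58, 22.7, 323 and 175 CPM and rose (log2 fold change 3.66 ± 0.45 SE, adjusted p = 0.00577). PDGFRA was at 0, 4.78, 167 and 54.0 CPM (log2 fold change 4.41 ± 0.70 SE, adjusted p = 0.0183), SOX10 at 0, 7.17, 60.6 and 32.4 CPM and GPR17 at 0, 11.9, 123 and 46.8 CPM. In neuron-gate cells OLIG1 also stood higher on D45, at 0.155, 2.08, 19.7 and 19.4 CPM, and so did the list, at 60.2, 56.2, 645 and 556 CPM, and the part of free RNA in the rise was not tested. Without D45 replicate A, SOX10 and GPR17 no longer passed (adjusted p 0.170 to 0.206), nor did they with D28 and D45 libraries alone (0.0568 to 0.0605). By DESeq2 PDGFRA and GPR17 did not pass (0.107 to 0.402). With the milder removal of possible doublets OLIG1 did not pass by edgeR (0.0824), but that setting also takes out cells by genes of this lineage. With the cells that had OLIG1 or PDGFRA removed, the log2 fold change of SOX10 was 0.68 (adjusted p 0.583). OLIG1 and PDGFRA could not be tested there, since these cells were chosen by them. GPR17, with 0, 2, 12 and 1 UMIs in the cells left, was too low to be tested. The removed cells were chosen by genes of the same list.

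Some astrocyte genes other than those of the gate also rose on D45. Of 16 tested, 6 rose and none fell, with a median log2 fold change of 1.53. SPARCL1 (chromosome 8, 131386804 to 131431427) was at 96.2, 58.5, 881 and 1273 CPM (log2 fold change 3.86 ± 0.40 SE, adjusted p = 0.00294). The small heat shock protein CRYAB was at 4.58, 10.2, 137 and 113 CPM (log2 fold change 3.62 ± 0.37 SE, adjusted p = 0.00294), and the lipid carrier APOE at 41.2, 40.0, 391 and 212 CPM (log2 fold change 2.88 ± 0.37 SE, adjusted p = 0.00697). For each of the 3, both D45 libraries lay above both D28 libraries, and each kept its call without any single library. In cells thinned to 2000 UMIs, where D28 rests on replicate B alone, APOE did not pass (adjusted p 0.175). Neuron-gate cells also stood higher on D45, at 31.4, 11.3, 94.5 and 139.9 CPM of SPARCL1, 6.67, 3.75, 10.9 and 22.6 CPM of CRYAB and 17.1, 6.18, 52.8 and 123 CPM of APOE. APOE was detected in 11.8%, 9.15%, 41.4% and 50.5% of the class and in 6.90%, 3.56%, 24.2% and 43.6% of neuron-gate cells, and in 20.7% and 20% against 7.78% and 15.7% on D45 with cells thinned to 2000 UMIs. The part of free RNA in these rises was not tested. Astrocyte-like cells made up 0.249%, 0.0632%, 6.55% and 8.98% of the cells within the limits, so they were far more frequent on D45. A cell of that kind with HES5 and SOX9 whose AQP4 and GFAP went undetected could pass the gate. The part of such cells in these rises was not tested either. The glutamate transporter SLC1A2 (50.4, 46.0, 123 and 129.7 CPM), the GABA transporter SLC6A11 (18.3, 11.3, 41.6 and 94.5 CPM) and AGT, angiotensinogen (0, 2.99, 14.6 and 64.8 CPM), completed the 6. All of the latter were lost without D11 replicate A, D11 replicate B, D28 replicate B or D45 replicate B (adjusted p 0.0509 to 0.252), and SLC1A2 also without D45 replicate A (0.1503). Removing the cells with OLIG1 or PDGFRA left log2 fold changes of 4.06 for SPARCL1, 3.74 for CRYAB and 3.02 for APOE.

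Radial glia genes moved in both directions between the days. Of 14 tested, 2 rose and 1 fell, with a median log2 fold change of -0.34. PAX6 rose (log2 fold change 2.81 ± 0.51 SE, adjusted p = 0.0255). PTPRZ1 rose (log2 fold change 1.38 ± 0.32 SE, adjusted p = 0.0479), and NES, the nestin filament of neural progenitors, fell from 266 and 449.6 CPM to 95.7 and 96.3 CPM (log2 fold change -1.93 ± 0.30 SE, adjusted p = 0.0163). None of these 3 passed without D45 replicate A (adjusted p 0.135 to 0.213), and neither NES nor PTPRZ1 passed without D45 replicate B (0.0912 to 0.161). PTPRZ1 was also lost without D11 replicate A (0.0950) or B (0.0920). Of 5 genes known from outer radial glia, which lie away from the ventricle, TNC (55.0, 80.0, 182 and 335 CPM), an extracellular matrix protein, and ITGB5 (4.58, 11.9, 44.5 and 39.6 CPM), an integrin, rose. Both were lost without D45 replicate A or B or D11 replicate A (adjusted p 0.0519 to 0.170), and ITGB5 without D11 replicate B (0.0649).

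Some replication genes and 1 timing gene fell on D45. Of 11 replication genes 3 fell and none rose, with a median of -1.76. PCNA, the sliding clamp of DNA polymerase, was at 77.9, 128, 34.3 and 23.4 CPM (log2 fold change -1.87 ± 0.32 SE, adjusted p = 0.0196), and the helicase subunits MCM2 and MCM3 were at 18.3, 49.0, 5.84 and 12.6 CPM and at 22.9, 34.6, 6.57 and 2.70 CPM. LIN28B, an RNA-binding protein of early progenitors that blocks let-7 maturation, was at 4.58, 57.9, 0.730 and 5.40 CPM (log2 fold change -3.39 ± 0.65 SE, adjusted p = 0.0281) and was the only 1 of 6 timing genes to pass. The timing list summed to 1214, 3134, 1561 and 1553 CPM, so D28 replicate A lay below both D45 libraries. The D28 replicates differed by over 10 times for LIN28B, and the fall did not pass without D28 replicate B (adjusted p 0.801) or D45 replicate A (0.185). LIN28B also did not pass by DESeq2, or by edgeR with the cells that had OLIG1 or PDGFRA removed (0.0724). The 3 replication genes were lost without D28 replicate B (0.0574 to 0.407) or D45 replicate B (0.0513 to 0.125), PCNA and MCM2 without D45 replicate A (0.0861 to 0.235), and MCM2 without D11 replicate A (0.0704) or B (0.0657).

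Positional genes showed both directions. Of 9 forebrain genes, 1 rose and 2 fell. SIX3, a factor of the anterior forebrain and hypothalamus, was at 22.9, 38.8, 115 and 126 CPM (log2 fold change 1.77 ± 0.29 SE, adjusted p = 0.017), beside 0.309, 11.9, 129.6 and 109 CPM in neuron-gate cells. DBX1 was at 18.3, 92.0, 0 and 0 CPM. Its 158 UMIs over the D28 sums, 83.5 CPM, against none on D45 make it at least 69.0-fold lower on D45, with 3 UMIs over the group as the floor (adjusted p = 0.00577). D28 replicate B held 154 of these UMIs, and the bound was 15.2-fold without it, 30.9-fold without D45 replicate A and 38.1-fold without D45 replicate B. The ligand WNT8B was at 68.7, 200.03, 14.6 and 18.0 CPM (log2 fold change -3.09 ± 0.40 SE, adjusted p = 0.00697). Of 8 midbrain genes, 2 fell and none rose: the floor plate factor LMX1A, at 215, 89.6, 12.4 and 20.7 CPM (log2 fold change -3.01 ± 0.56 SE, adjusted p = 0.027), and PAX5, at 0, 115, 2.19 and 0.900 CPM. PAX5 rests on D28 replicate B, since D28 replicate A had no UMI of it, and without D28 replicate B its log2 fold change was 1.11 (adjusted p 0.690). LMX1A and PAX5 were lost without D45 replicate A (0.140 to 0.147) or D45 replicate B (0.0558 to 0.103), and SIX3 and WNT8B without D45 replicate A (0.0621 to 0.0701). EN1, which marks the midbrain-hindbrain boundary, was at 73.3, 22.7, 0.730 and 9.004 CPM and did not pass (adjusted p = 0.129). No hindbrain gene was high enough to be tested, and the 8 with a row summed to 18.3, 4.78, 2.19 and 5.40 CPM. None of 9 dorsoventral, 11 FGF response, 13 cholesterol synthesis and 11 neuron genes passed by edgeR or DESeq2, and 5, 3, 3 and 3 of them were at an unadjusted p under 0.05 by edgeR.

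Changes were ranked by size, genes of the lists included, if libraries did not overlap and the higher group had a mean of at least 50 CPM. Within these limits the largest rises were OPCML, SCRG1, NPY, PDGFRA, DSCAM, ABI3BP, ATP10B and SPARCL1. OPCML was at 13.7, 13.7, 454 and 426 CPM (log2 fold change 4.89 ± 0.40 SE, adjusted p = 0.00147) and DSCAM at 4.58, 16.7, 330.0 and 135 CPM (log2 fold change 3.93 ± 0.51 SE, adjusted p = 0.00697). With the cells that had OLIG1 or PDGFRA removed, a setting chosen after seeing the data, neither passed, at 3.01 (adjusted p 0.0922) and 1.31 (0.178). Neuron-gate cells stood above the class and also higher on D45, at 146, 205, 599.9 and 617 CPM of OPCML and 145, 332, 458 and 404 CPM of DSCAM, and the part of free RNA in these rises was not tested. ABI3BP, an extracellular matrix protein, was at 9.16, 10.7, 207 and 129 CPM and kept its call there, at 4.17 (0.0081), beside 13.9, 8.93, 12.0 and 16.4 CPM in neuron-gate cells. NPY, the neuropeptide Y precursor, was at 9.16, 8.36, 405 and 39.6 CPM, with D45 replicate A about 10 times D45 replicate B, and it and the flippase gene ATP10B were lost without D28 replicate B or D45 replicate A (0.0580 to 0.219). VEGFA, an angiogenic factor induced by low oxygen, was the single stress gene of 11 to pass, at 9.16, 35.2, 291 and 176 CPM (log2 fold change 2.98 ± 0.41 SE, adjusted p = 0.00897), beside 23.9, 69.2, 162 and 110.5 CPM in neuron-gate cells. POSTN, 1 of 5 fibroblast genes tested, rose from 36.7 and 31.0 CPM to 72.3 and 128 CPM, and was lost without either D11 replicate, D28 replicate B or D45 replicate B (0.0913 to 0.161) and without the cells that had OLIG1 or PDGFRA (0.96, adjusted p 0.192).

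Within the same limits on overlap and level, the largest falls were PMCH, DBX1, ISG15, TPBG, RSPO2, WNT8B, LMX1A and RBM3. PMCH, the precursor of melanin-concentrating hormone, was at 724, 147, 11.0 and 0.900 CPM (log2 fold change -5.85 ± 0.88 SE, adjusted p = 0.0154). The interferon-induced ISG15 was at 1879, 195, 21.9 and 73.8 CPM, the WNT co-factor RSPO2 at 522, 107, 17.5 and 28.8 CPM and the trophoblast glycoprotein TPBG at 926, 106, 14.6 and 41.4 CPM. These 4 were each at least 4 times higher in D28 replicate A, with 17 cells, than in D28 replicate B. Neuron-gate cells stood lower on D45 too for ISG15 (171, 159, 13.8 and 28.0 CPM) and TPBG (61.2, 25.9, 5.66 and 14.9 CPM), and held 35.6, 15.9, 11.3 and 15.99 CPM of RSPO2 and 8.61, 41.6, 0.407 and 1.79 CPM of PMCH. On D28 RSPO2 was detected in part of the class: of the cells with neither OLIG1 nor PDGFRA, 10 of 16 in replicate A and 14 of 147 in replicate B had a UMI of it, and the cells with either gene had none. LMX1A, of the floor plate, was detected in 10 of these 16 and 24 of these 147 cells and EN1 in 9 and 24, beside the floor plate shares given above, and the part of floor plate cells in these falls was not tested. ISG15, RSPO2, TPBG and LMX1A were lost without D45 replicate A or B, and WNT8B without D45 replicate A (0.0558 to 0.201). RBM3, an RNA-binding protein induced by cold, was even between replicates at 215, 238, 29.9 and 27.0 CPM (log2 fold change -2.96 ± 0.30 SE, adjusted p = 0.00294), and in neuron-gate cells it stood at 169, 139, 40.4 and 38.6 CPM.

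More genes passed in the comparison with D11, which sets 4 libraries against 2 and spans the change of medium. The number of genes passing is therefore not a measure of interval length. When the D28 and D45 sums were set against the 442 D11 cells of the same gate, with the later libraries shared with the comparison above, 1604 of 11424 genes passed (14.0%), 823 higher (7.20%) and 781 lower (6.84%). Of 10 gliogenic factors, which open the glial phase of progenitors, 7 rose and none fell, with a median of 1.62 beside 0.00 over all genes. NFIA was at 221 and 182 CPM on D11 and 811, 1078, 943 and 1159 CPM later (log2 fold change 2.15 ± 0.26 SE, adjusted p = 0.000661). NFIB went from 14.8 and 12.5 CPM to 183, 269, 388 and 433 CPM (log2 fold change 4.22 ± 0.29 SE, adjusted p = 4.97e-05). NFIX was almost absent on D11, at 0.315 and 0.520 CPM, and stood at 50.4, 57.9, 123 and 170.2 CPM later (log2 fold change 5.69 ± 0.35 SE, adjusted p = 3.05e-05). These 3 nuclear factors were higher in all 4 later libraries than in both D11 libraries. ID1, a target of BMP signalling, rose from 3.15 and 3.64 CPM to 252, 62.7, 58.4 and 75.6 CPM. Each of the 4 kept its call without any single library.

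Radial glia genes split in this comparison: 6 of 14 rose and 2 fell. PTN was at 104 and 93.1 CPM on D11 and 3707, 4185, 2984 and 3415 CPM later (log2 fold change 5.01 ± 0.28 SE, adjusted p = 2.21e-05). SLC1A3 was at 31.2 and 15.1 CPM on D11 (log2 fold change 3.93 ± 0.35 SE, adjusted p = 0.000163), and FABP7 at 234 and 221 CPM (log2 fold change 1.89 ± 0.27 SE, adjusted p = 0.00158). PROM1, the apical membrane protein prominin, fell from 89.6 and 68.1 CPM to 9.16, 24.5, 8.76 and 13.5 CPM (log2 fold change -2.44 ± 0.27 SE, adjusted p = 0.000455), and NES fell (log2 fold change -1.31 ± 0.24 SE, adjusted p = 0.00581). PTPRZ1 and NES did not pass without D11 replicate B (adjusted p 0.0774 and 0.131), nor PAX6 without D28 replicate B (0.971). All 5 outer radial glia genes tested rose, with CLU going from 34.4 and 67.1 CPM to 3611, 805, 2290.5 and 2052 CPM. Of 16 astrocyte genes 9 rose and none fell, SPARCL1 from 3.47 and 1.56 CPM. VIM, by contrast, was already at 9049 and 7875 CPM on D11, beside 4468, 8126, 10033 and 8217 CPM later (adjusted p = 0.452).

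Several early progenitor genes fell after D11. Of 6 timing genes 3 fell: LIN28B from 188 and 173 CPM (log2 fold change -3.90 ± 0.42 SE, adjusted p = 0.000406), the chromatin protein HMGA1 from 490.0 and 583 to 64.2, 104, 92.0 and 41.4 CPM (log2 fold change -2.93 ± 0.30 SE, adjusted p = 0.000346), and the mRNA-binding protein IGF2BP1 from 88.9 and 82.1 to 4.58, 50.2, 8.76 and 11.7 CPM (log2 fold change -2.20 ± 0.34 SE, adjusted p = 0.00238). Of 11 replication genes 9 fell and none rose. The mitotic exclusion of the gate held for 550 of 945 and 405 of 643 D11 cells with HES5 and SOX9. In the later libraries it held for 16 of 98, 81 of 335, 63 of 401 and 61 of 402 such cells. The part of this exclusion in the falls was not tested. CCND1, cyclin D1, was at 476 and 653 CPM on D11 and 463, 292, 173 and 159 CPM later, and it, CCND2 and PCNA did not pass without D11 replicate B (0.0593 to 0.195). Of 8 midbrain genes 4 fell and none rose. FOXA2, the floor plate factor, fell from 34.1 and 52.5 CPM to 13.7, 3.58, 2.19 and 0 CPM (log2 fold change -3.63 ± 0.43 SE, adjusted p = 0.000647), and OTX2, of forebrain and midbrain, from 109 and 93.1 to 82.5, 61.5, 29.9 and 27.0 CPM. OTX2 was lost without D11 replicate A (0.0805) and PAX5 without D11 replicate B (0.0609). Of 9 forebrain genes 3 rose and 2 fell, among them LHX2, a factor of the forebrain neuroepithelium, which rose from 26.5 and 12.0 to 27.5, 105, 152 and 159 CPM and was lost without D11 replicate B (0.0778).

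Changes against D11 were ranked by the same limits, libraries that did not overlap and a mean of at least 50 CPM in the higher group. The largest rises within them, beside SPARCL1 and NFIX, were SCG2, COL1A2, SLCO1C1, PDE3A, PDE7B and MT3. SCG2, a secretory granule protein, had no UMI on D11 and was at 13.7, 469, 1036 and 1217 CPM later, which is at least 1382-fold higher with 3 UMIs over D11 as the floor, and at least 522-fold without D11 replicate A or 860.2-fold without D11 replicate B. SCG2 was at 638, 492, 405 and 632 CPM in neuron-gate cells of the same libraries, and the part of free RNA was not tested. The thyroid hormone transporter SLCO1C1 went from 3.47 and 4.16 to 289, 428, 668 and 1016 CPM, beside 3.07, 6.68, 33.8 and 46.7 CPM in neuron-gate cells. COL1A2, a fibroblast collagen, went from 0.946 and 0.520 to 344, 139, 205 and 628 CPM, beside 110.3, 86.4, 93.8 and 386 CPM there. Of 3 microglia and endothelium genes tested CLDN5 and PTPRC rose. CLDN5, a junction protein of endothelium, had no UMI on D11 and was at 59.6, 53.1, 11.0 and 23.4 CPM later, at least 55.5-fold higher on the same floor (21.0-fold without D11 replicate A, 34.6-fold without D11 replicate B and 34.0-fold without D28 replicate B), beside 12.9, 3.55, 4.79 and 4.02 CPM in neuron-gate cells, and it kept its call without any single library. PTPRC, the leukocyte phosphatase CD45, went from 6.94 and 8.32 to 32.1, 37.6, 18.98 and 20.7 CPM, beside 32.5, 26.4, 16.03 and 15.9 CPM in neuron-gate cells, and was lost without either D11 replicate (adjusted p 0.0632 to 0.141). The part of other cells and of free RNA in these values was not tested. Within these limits the largest falls were GREB1, MECOM, RBPMS, LIN28B, DBX1, SEMA3E, CMTM7 and EPHA7, with log2 fold changes from -4.83 to -3.08. MECOM was at 289 and 112 CPM on D11 and 9.16, 67.5, 0.730 and 1.80 CPM later. The 16 genes with the largest changes within these limits, SPARCL1, NFIX and the latter 8 included, kept their calls without any single library.

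**Figure D4:**
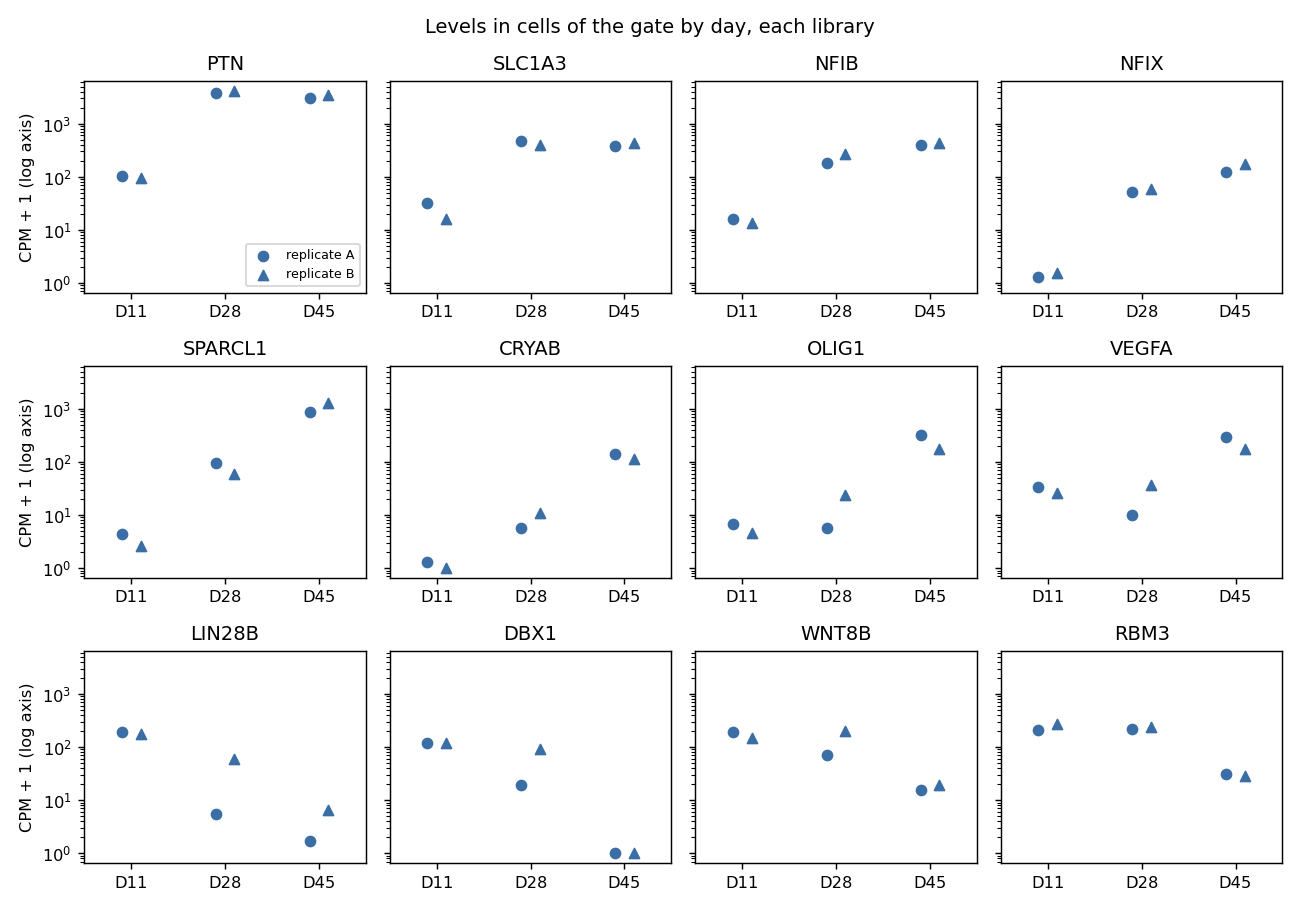
Level of 12 genes (CPM plus 1, log axis) in cells of the gate on D11, D28 and D45, with replicate A as circles and replicate B as triangles. PTN, SLC1A3, NFIB and NFIX are low on D11 and high on both later days, SPARCL1, CRYAB, OLIG1 and VEGFA are highest on D45, LIN28B is highest on D11, and DBX1, WNT8B and RBM3 are lowest on D45.

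Notch genes, the pathway of the gate gene HES5, passed in small numbers. Of 20, 17 had a row (NOTCH1 and others were not analysed here) and 16 were tested for age. Between D28 and D45, 1 fell and none rose: the inhibitory ligand DLL3, at 4.58, 20.9, 2.19 and 4.50 CPM (log2 fold change -2.03 ± 0.47 SE, adjusted p = 0.049), a call that was lost without any single library other than D28 replicate A (0.10003 to 0.839). Against D11, NOTCH2 and HEY2 rose and DLL3, JAG1 and DTX4 fell. The receptor NOTCH2 was at 42.9 and 37.4 CPM on D11 and between 91.6 and 136 CPM later, and JAG1 at 97.1 and 135 CPM and 9.16, 61.5, 36.5 and 25.2 CPM. DLL3 alone kept its call without any single library (adjusted p from 0.0882 to 0.835 for the others where lost: NOTCH2, HEY2 and DTX4 without D11 replicate A, NOTCH2, JAG1 and DTX4 without D11 replicate B, HEY2 without D28 replicate B, DTX4 without D45 replicate A or B). RBPJ was at 171 and 145 CPM on D11 and 215, 179, 197 and 191 CPM later (adjusted p = 0.729), and HES1 at 83.3 and 127 and 261, 146, 111 and 65.7 CPM (adjusted p = 0.788). Of the HEY genes, HEY1, HEY2 and HEYL each hold 1 GTGGGAA word in the 250 bases before the start, as HES5 holds 2, while HES1 and HES4 hold none in theirs. These windows follow the annotated starts, which were not checked, and that of HES1 ends in a run of A. The absence of the word there is thus not a result about the promoter. No proneural gene was high enough to be tested, and the 6 with a row summed to 4.58, 1.19, 0 and 0.900 CPM.

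The class was then set against astrocyte-like cells of the same 4 libraries, with the library as a block. The classes were cut by genes of these same cells, so genes that go along with AQP4, GFAP, HES5 or SOX9 may differ through the gate. The exclusions by CORIN, STMN2, mitotic and fibroblast genes were applied to the radial glia-like cells and not to the astrocyte-like cells. Genes that go along with these, such as other fibroblast genes, may therefore be lower in the class through the gate as well. The part of the gate in these differences was not tested. Of 10305 genes 602 passed (5.84%), 187 higher in radial glia-like cells (1.81%) and 415 lower (4.03%). None of 14 genes of the radial glia list passed, with a median log2 fold change of -0.36 beside 0.00 over all genes. The list summed to 15457, 27134, 24998 and 24518 CPM in astrocyte-like cells, above the class in all 4 libraries (13591, 16781, 18008 and 16198 CPM). The count of genes passing was 0 by edgeR, 8 were at an unadjusted p under 0.05 (2 higher and 6 lower in the radial glia-like cells), and 5 passed by DESeq2 (MSI1, DBI, VIM, PTN and PTPRZ1), so the list differed between the tools. FABP7 was at 540.4, 3118, 2205 and 1782 CPM in astrocyte-like cells (log2 fold change -0.95 ± 0.34 SE, adjusted p = 0.152) and VIM at 7062, 13008, 11932 and 12906 CPM (adjusted p = 0.144).

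Among forebrain genes, 3 of 5 tested were higher in the radial glia-like cells and none was lower. SIX3 was at 22.9, 38.8, 115 and 126 CPM against 0, 0, 16.1 and 7.25 CPM (log2 fold change 3.36 ± 0.32 SE, adjusted p = 0.00225). EMX2, a factor of the dorsal forebrain, was at 13.7, 74.6, 9.49 and 27.9 CPM against 0, 0, 1.41 and 2.83 CPM (log2 fold change 2.89 ± 0.37 SE, adjusted p = 0.00436), and LHX2 at 27.5, 105, 152 and 159 CPM against 4.66, 16.0, 82.9 and 36.0 CPM (log2 fold change 1.54 ± 0.28 SE, adjusted p = 0.016). In all 3 the radial glia-like value was higher within each of the 4 libraries, and the LHX2 call was lost without D45 replicate B (0.196). In D28 replicate A, however, SIX3 and LHX2 were each detected in only 1 of 17 radial glia-like cells. None of 6 midbrain genes passed by edgeR or DESeq2, and 2 were at an unadjusted p under 0.05 by edgeR, both lower in the radial glia-like cells. CCND1 was the 1 replication gene of 9 to pass, at 463, 292, 173 and 159 CPM against 37.3, 119.9, 20.4 and 29.2 CPM (log2 fold change 2.56 ± 0.30 SE, adjusted p = 0.00319). Neuron-gate cells of D45 held as much SIX3 as the class, as given above.

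Of 14 Notch genes 3 were higher and none lower. DLL1 was at 13.7, 28.7, 33.6 and 36.0 CPM against 4.66, 0, 8.65 and 8.35 CPM (log2 fold change 1.91 ± 0.30 SE, adjusted p = 0.00922), RBPJ at 215, 179, 197 and 191 CPM against 130.4, 104, 113 and 102 CPM (log2 fold change 0.70 ± 0.15 SE, adjusted p = 0.0331), and HEY2 at 0, 23.3, 43.1 and 42.3 CPM against 0, 40.0, 7.07 and 6.20 CPM (log2 fold change 2.18 ± 0.49 SE, adjusted p = 0.0424). All 3 were lost without D45 replicate A (0.110 to 0.473) or B (0.179 to 0.591), and RBPJ without D28 replicate B (0.0581). Of the DLL1 UMIs of the D45 cells, 37 and 28 lay in cells with OLIG1 or PDGFRA and 9 and 12 in cells with neither, while in D28 replicate B 4 lay in the former and 44 in the latter. The oligodendrocyte lineage genes OLIG1 (0, 0, 27.5 and 16.3 CPM in astrocyte-like cells), SOX10 and PDGFRA were likewise higher in the radial glia-like class, 3 of 6 tested, and PDGFRA was lost without D45 replicate A (0.666) or B (0.357).

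Some astrocyte-side genes were lower in the radial glia-like cells. Of 15 astrocyte genes 4 were lower and none higher. APOE was at 41.2, 40.0, 391 and 212 CPM against 340.1, 336, 1370.0 and 1516 CPM (log2 fold change -2.71 ± 0.27 SE, adjusted p = 0.00225), and SPARCL1 at 96.2, 58.5, 881 and 1273 CPM against 356, 384, 3169.8 and 3457 CPM (log2 fold change -2.04 ± 0.24 SE, adjusted p = 0.00315). CD44, a hyaluronan receptor, and CRYAB completed the 4, and were lost without D45 replicate B (0.0790 to 0.142), CRYAB also without D28 replicate B (0.0510). Of 10 gliogenic factors 4 were lower: ID1, at 252, 62.7, 58.4 and 75.6 CPM against 696, 599.6, 311 and 502 CPM (log2 fold change -2.58 ± 0.27 SE, adjusted p = 0.0023), ID2, ID3 and NFIX. ID3 and NFIX were lost without D28 replicate B or either D45 replicate (0.0682 to 0.124). Of 5 outer radial glia genes TNC, LIFR and CLU were lower, and LIFR, the receptor of leukemia inhibitory factor, alone kept its call without any single library, at 13.7, 38.2, 46.0 and 49.5 CPM against 55.9, 239.8, 132 and 133 CPM. TNC and CLU were lost without D28 replicate B or either D45 replicate (0.0586 to 0.230). The 184 cells with 1 of AQP4 and GFAP lay between the classes in several of these: on D45, APOE was at 1011 and 535 CPM, SPARCL1 at 1804 and 1885 CPM and SIX3 at 61.0 and 80.2 CPM in them.

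Genes past the threshold were ranked by size if libraries did not overlap and the higher group had a mean of at least 50 CPM. Within these limits the genes furthest above astrocyte-like cells were SIX3, ADGRV1, HK2, CDH7, CCND1, GABRG3, PDK1 and TMEM132D. ADGRV1 was at 692, 1219, 1518 and 3315 CPM against 67.6, 399.7, 171 and 222 CPM (log2 fold change 2.93 ± 0.35 SE, adjusted p = 0.00328) and was above neuron-gate cells too (270.1, 299, 429 and 491 CPM). HK2, hexokinase 2, was at 137, 38.2, 196 and 97.2 CPM against 4.66, 7.99, 20.5 and 21.4 CPM and PDK1, which diverts pyruvate from the mitochondrion, at 133, 60.9, 189.8 and 74.7 CPM against 16.3, 16.0, 29.9 and 24.6 CPM. With these went 3 of 10 stress genes that were higher, LDHA (log2 fold change 1.67 ± 0.25 SE, adjusted p = 0.00863), PGK1 and VEGFA, all glycolytic or induced by low oxygen. FOS and JUN, early response genes, were lower. All 5 stress genes were lost without D45 replicate B, PGK1, VEGFA and JUN without D45 replicate A, and JUN without D28 replicate B (0.0551 to 0.454). Of the cholesterol synthesis genes INSIG1, a sterol-dependent brake on that pathway, was higher, and it was lost without D45 replicate A or B (0.282 to 0.334). Neuron-gate cells stood at 90.8, 69.2, 194 and 103 CPM of HK2 and 82.9, 104, 169 and 208 CPM of GABRG3, beside 41.2, 35.2, 123 and 74.7 CPM of GABRG3 in the class. GABRG3 and the cadherin CDH7 were lost without D45 replicate A (0.0608 to 0.0729), and TMEM132D without D45 replicate B (0.1304).

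Within the same limits on overlap and level, the genes furthest below were WIF1, MLIP, S100A6, BNC2, TAGLN, CEBPD, CD36 and IGFBP4. S100A6, a calcium-binding protein, was at 36.7, 34.0, 51.1 and 155 CPM against 748, 448, 679 and 1664 CPM (log2 fold change -3.83 ± 0.21 SE, adjusted p = 0.000203). The WNT inhibitor WIF1 was at 9.16, 1.19, 6.57 and 6.30 CPM against 231, 248, 52.0 and 15.7 CPM, and the actin-binding TAGLN at 4.58, 19.1, 4.38 and 9.90 CPM against 102, 64.0, 93.7 and 169 CPM. In these 3 no radial glia-like library reached any astrocyte-like library. IGFBP4 was lost without D45 replicate A (0.0516) and the fatty acid transporter CD36 without D45 replicate B (0.0588). Of the dorsoventral genes BMP4 was higher, at 151, 92.6, 269 and 201 CPM against 16.3, 24.0, 83.8 and 93.7 CPM, and NKX6-1 lower, at 4.58, 15.5, 5.11 and 2.70 CPM against 44.3, 16.0, 18.0 and 10.8 CPM. BMP4 was lost without D45 replicate A (0.0886), and NKX6-1 without D28 replicate A or either D45 replicate (0.0642 to 0.307). COL1A2 was lower (log2 fold change -1.39 ± 0.34 SE, adjusted p = 0.0496), and was lost without D28 replicate B or either D45 replicate (0.0586 to 0.228). The D28 side of all class values rests on 23 and 7 astrocyte-like cells. Without the library as a block 44 genes passed, and 40 of the 45 genes read for this comparison were lost. In the D45 libraries alone, a setting chosen after seeing the data, 2017 genes passed, all 45 among them. That fit held 4 sums and left 1 residual degree of freedom. Its sums are also part of the main fit in which the 45 genes had passed, so it is no separate support for them.

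**Figure D5:**
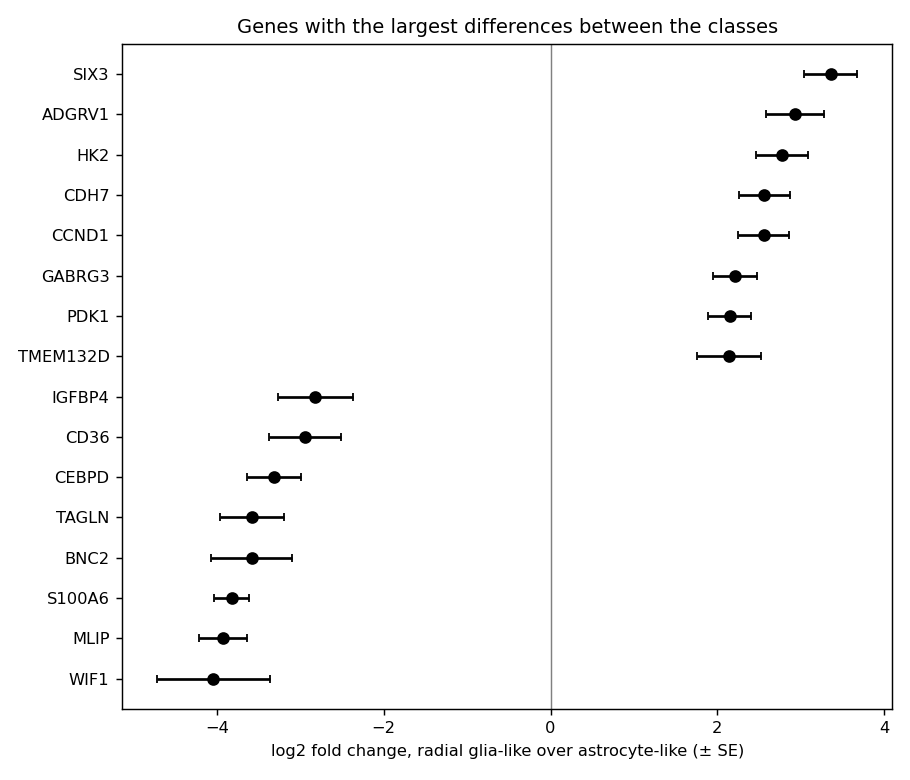
Log2 fold change of radial glia-like over astrocyte-like cells, with SE as error bars, for 16 genes. These had the largest differences in each direction among genes with a symbol that passed the threshold and met 2 limits. Their libraries did not overlap, and the higher group had a mean of at least 50 CPM. SIX3 has the largest positive value, 3.36, and WIF1 the largest negative value, -4.04.

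Whether the class difference itself changed with age was read as an interaction. Of 10305 genes 22 passed (0.213%), 6 with a difference that was more positive on D45 and 16 more negative, and each rests on the 23 and 7 astrocyte-like cells of D28. Those of them that are named here, RSPO2, WNT8B and SLCO1C1, are given in the closing section.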

How the data were processed

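Single-cell RNA was read in 6 libraries of pMLOs, 2 per day on D11, D28 and D45. The authors made GEM-X 3' v4 libraries, counted them with Cell Ranger on Sscrofa11.1 and deposited UMI counts per gene and barcode, neither normalized nor filtered here; the submitters' processing notes also name Seurat 4.3.0, and the authors' clusters were not used. No column of another sample was used, and 0 such columns were found. Of 30477 gene rows 17100 carried a symbol, and 245 of 267 listed genes had a row. Depth per class and library is given in the report.

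Members were found by the gate in the report, and counts were summed per library and class over at least 5 cells, a minimum set after the data were seen. Genes of the gate (15) were left out of tests. The sums were tested with edgeR 4.0.16 (filterByExpr, TMM, quasi-likelihood test, and a threshold of 0.05 on p-values after Benjamini-Hochberg adjustment). SE stands for the absolute log2 fold change, shrunk by a prior count, divided by the square root of the F statistic. It is not an error estimated by the fit. All 6 libraries entered the age fit and the library was a block in the class fit. The members, lists and tests were chosen with earlier results of these data known. Some genes of the lists are counted but not reported here. Named genes are those of the lists, and, per comparison, the 8 top rises and 8 top falls with a symbol, libraries that did not overlap and a mean of at least 50 CPM in the higher group, plus the 15 most variable genes. Alternatives were DESeq2 1.42.0 and its size factors, leaving out each library, blocking on the replicate letter, keeping genes of low count, other UMI and gate limits, cells thinned to 2000 UMIs and removal of possible doublets. No doublet caller was run. The fits were tested on simulated data. Exact binomial intervals used scipy 1.17.1, with python 3.11.15, pandas 2.3.3, numpy 2.4.6, matplotlib 3.10.9 and R 4.3.3. Upstream windows came from the RefSeq genome of Sscrofa11.1.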

Additional observations from a re-analysis of the deposited data

Results flagged for a closer look

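The difference between radial glia-like and astrocyte-like cells changed with age for RSPO2, WNT8B and SLCO1C1, by the interaction of class and day in edgeR with Benjamini-Hochberg adjustment. RSPO2, which boosts WNT signalling, was at 522, 107, 17.5 and 28.8 CPM in the radial glia-like cells (D28 replicates A and B, D45 replicates A and B) and at 2.33, 0, 32.2 and 62.6 CPM in astrocyte-like cells, and the fitted log2 change of the class difference from D28 to D45 was -8.50 ± 0.57 SE (adjusted p = 0.0006). WNT8B was at 68.7, 200.03, 14.6 and 18.0 CPM and at 0, 0, 15.1 and 34.5 CPM, with -8.36 ± 1.09 SE (adjusted p = 0.0275). SLCO1C1 was at 289, 428, 668 and 1016 CPM and at 18.6, 32.0, 774 and 553 CPM, with -3.45 ± 0.55 SE (adjusted p = 0.0493). In each the radial glia-like value was higher on D28, where RSPO2 UMIs lay in 10 and 14 of the 17 and 153 radial glia-like cells. On D45 it was lower in both replicates for RSPO2 and WNT8B, and for SLCO1C1 lower in replicate A and higher in replicate B. The first 2 fitted values depend on the prior count, since astrocyte-like cells had 0 or 1 UMI on D28. Their SE was derived from the test statistic and does not measure counting error at so few UMIs. The D28 side rests on 23 and 7 astrocyte-like cells. All 3 were lost without D28 replicate A, and WNT8B and SLCO1C1 without D28 replicate B (adjusted p 0.0504 to 0.233).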

How the results depend on the processing

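The direction of 134 gene calls was followed over the alternatives, and 2 reversed: PAX5 between D45 and D28 without D28 replicate B (log2 fold change -5.34 to 1.11 with 1 library left out) and NES against D11 in thinned cells (0.19), where D28 replicate A fell under the 5-cell minimum. For D45 against D28 (314 genes), 1155 genes passed with no filter, 147 with 2 or more UMIs of HES5 and SOX9, 52 in thinned cells, 80 with D28 and D45 libraries alone, 153 with OLIG1 or PDGFRA cells removed and 50 to 1038 with 1 library left out. For D28 and D45 against D11 (1604), 995 passed by DESeq2, 2424 with no filter, 705 with 2 or more UMIs, 413 in thinned cells and 382 to 2769 with 1 library left out. For the class comparison (602), 1591 passed with no filter, 300 with 2 or more UMIs, 134 in thinned cells, 365 with milder doublet removal, 2277 with astrocyte-like cells held to the HES5 and SOX9 gate, 44 with no library block, 2017 in D45 alone and 83 to 1054 with 1 library left out. For the interaction (22), 36 passed by DESeq2, 225 with no filter, 6 with 2 or more UMIs, 7 with milder doublet removal and 10 to 69 with 1 library left out. The shares moved to 0.0649%, 0.479%, 0.390% and 0.224% with 2 or more UMIs, to 0.0325%, 0.316%, 0.286% and 0.296% in thinned cells, and, over all barcodes, to 0.118%, 1.08%, 0.538% and 0.504%. In thinned cells, where D28 rests on replicate B alone, 17 of the 23 named D45 against D28 calls that could be fitted were lost, among them DBX1, PMCH, RBM3 and APOE, and 8 of 29 against D11 and 11 of 36 between the classes. By DESeq2 the D45 against D28 calls of PDGFRA, GPR17, SLC1A2, NFIX, ITGB5, MCM2, LIN28B, DLL3, NPY, PAX5 and POSTN were lost. So were DTX4 and PAX5 against D11, and HEY2, INSIG1, PDGFRA and VEGFA between the classes. The causes were not tested. Replicate letters did not pair the libraries (correlations of deviations -0.18, 0.00 and -0.05 over 11433 genes), and with the replicate block 46 genes passed for D45 against D28, where 16 of 40 named genes kept their calls, and 1026 against D11. The planned removal of possible doublets left 0, 13, 0 and 1 cells and could not be fitted in any comparison, and the interaction could not be fitted in thinned cells or with the astrocyte-like gate. The setting with OLIG1 or PDGFRA cells removed, the milder doublet removal (cells with 6 or more neuron genes, 4 or more oligodendrocyte lineage genes or over 2 times the median UMIs, so it also takes out cells by genes of that lineage) and D45 alone were chosen after seeing the data. With 17 cells in D28 replicate A and 23 and 7 astrocyte-like cells on D28, the number of cells limits every comparison that uses D28.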
